A study of Mus musculus with 22 samples.

Results

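Ltn1, N6amt1, Rwdd2b, Usp16 and Ttc3 are 5 protein-coding genes of the Mmu16 segment that is triplicated in the Ts66Yah mouse model of Down syndrome. They are 5 of the 55385 genes of the count table, and 289 genes of that table lie in the segment. Ltn1, N6amt1, Rwdd2b and Usp16 are close neighbours, whereas Ttc3 lies farther along the chromosome, and the group was selected on the position of these genes and on the hippocampal (HIP) value of N6amt1, which stayed below 1.5-fold. RNA-Seq had been performed on the HIP and the entorhinal cortex (EC) of 5 wild-type (wt) and 6 Ts66Yah adult male mice, 1 library per region and mouse, 22 libraries in all. The wt mice were disomic littermates on the same mixed B6C3B background, and no treatment is given for either genotype. Ts66Yah mice carry a minichromosome with the distal part of Mmu16, derived from that of Ts65Dn by CRISPR/Cas9 removal of the centromeric Mmu17 part, and the line descends from 1 mosaic founder. They therefore hold 3 copies of each of the 5 genes, against 2 in wt mice.

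Of the 5 genes, 4 have known roles in the synthesis of proteins or in their ubiquitin marking. Ltn1 encodes Listerin, the E3 ubiquitin ligase of ribosome-associated quality control, which ubiquitinates nascent chains that remain on the large ribosomal subunit after a stall. N6amt1 encodes the catalytic partner of Trmt112 in the methyltransferase that modifies the translation termination factor eRF1. Usp16 removes ubiquitin from histone H2A, opposing the Polycomb repressive complex that places it. Ttc3 is a RING-type ubiquitin ligase with tetratricopeptide repeats, for which Akt has been described as a target. Rwdd2b encodes a protein with an RWD domain, a fold also found in ubiquitin ligases and in the translation regulator Gcn2, and its own role is little known.

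In chromosome order (GRCm38, GENCODE M21) the genes are N6amt1 (ENSMUSG00000044442, chr16:87354185-87368742, plus strand), Ltn1 (ENSMUSG00000052299, chr16:87376651-87432612, minus strand), Rwdd2b (ENSMUSG00000041079, chr16:87433407-87440573, minus strand), Usp16 (ENSMUSG00000025616, chr16:87454703-87483517, plus strand) and Ttc3 (ENSMUSG00000040785, chr16:94370618-94469343, plus strand). The first 4 span 129.3 kb. N6amt1 and Ltn1 are transcribed towards each other and their ends lie 7.91 kb apart, while 794 bases separate Ltn1 from Rwdd2b and 14.13 kb separate Rwdd2b from Usp16. Ttc3 starts 6.89 Mb beyond the end of Usp16. On the other side, the nearest tested gene before N6amt1 was Adamts5, 1.45 Mb away. Usp16 overlaps Cct8 on the opposite strand by 192 exonic bases, and Ttc3 overlaps Pigp on the opposite strand by 1225 bases, of which 326 are exonic in both. Since the strand setting of the counting is not given in the sources used here, reads from these overlaps cannot be assigned to one of the partners with certainty. N6amt1 and Rwdd2b overlap no other annotated gene, and Ltn1 only a small nucleolar RNA gene within an intron. No near-identical transcript of another gene was found for N6amt1, Ltn1 or Usp16, and for Rwdd2b and Ttc3 only short ones were, mostly of predicted microRNA genes.

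The RefSeq promoter table (GRCm38.p6) held a window of 250 bases before to 50 bases after the start site for 4 of the 5 genes, all but Rwdd2b. The start sites are shown because the gene with the smallest fold and its neighbours can be compared there. The first window below is that of N6amt1 and the others are those of genes with a larger fold, each from 15 bases before the start site, written 5′ to 3′ on the strand of the gene. Capitals mark CGCATGCG (the core of the NRF1 motif), CGGAAG (an ETS core) or CACGTG (an E-box), searched on both strands together with the CCAAT box (that is, CCAAT itself), the GC box in the form GGGCGG and the TATA sequence TATAAA. The motifs were chosen after the windows had been read.
N6amt1, chr16:87354170-87354199, plus strand: cccagtgtaagacaaaagCGCATGCGcagc
Ltn1, chr16:87432592-87432621, minus strand: gggaggcgggagCGGAAGtaggaagccgaa
Usp16, chr16:87454970-87454999, plus strand: gttcCGGAAGttgcctctccgggagggtgg
Ttc3, chr16:94370724-94370753, plus strand: cgactgCGCATGCGcaccctaagcCACGTG

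N6amt1 and Ttc3 both had CGCATGCG at the start site, which 1.87% of the 32851 windows of the table contained, and Ltn1 and Usp16 both had CGGAAG there, which 16.9% contained. The E-box of Ttc3 was matched in 7.15% of windows, and Usp16 had another one farther upstream. TATAAA was in none of the 4 windows and in 13.6% of all windows. N6amt1 and Ttc3 thus held the same letters at the start site, and the match is a description of the sequence alone. The window of N6amt1 was poor in G and C, at 41.0%, against 55.0% in Ltn1, 56.3% in Usp16 and 68.7% in Ttc3, and a median of 52.7% over all windows. It was not poor in CpG for that composition. The ratio of observed to expected CpG was 0.877 in N6amt1, 0.597 in Ltn1, 0.716 in Usp16 and 0.98 in Ttc3, with a median of 0.384 over all windows. The stretches upstream of N6amt1 and Ltn1, the convergent neighbours, overlap no annotated exon and are given next, and in them capitals mark the only motif found, a CCAAT box of Ltn1 on the opposite strand (37.4% of all windows). None of the motifs was found upstream of N6amt1, whose GC box (35.7% of all windows) lies after the start site.
N6amt1, chr16:87353935-87354184, plus strand: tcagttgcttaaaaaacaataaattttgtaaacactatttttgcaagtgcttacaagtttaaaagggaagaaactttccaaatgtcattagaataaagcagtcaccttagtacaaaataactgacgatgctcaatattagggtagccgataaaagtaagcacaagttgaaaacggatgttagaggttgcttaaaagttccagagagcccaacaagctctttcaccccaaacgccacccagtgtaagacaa
Ltn1, chr16:87432613-87432856, minus strand: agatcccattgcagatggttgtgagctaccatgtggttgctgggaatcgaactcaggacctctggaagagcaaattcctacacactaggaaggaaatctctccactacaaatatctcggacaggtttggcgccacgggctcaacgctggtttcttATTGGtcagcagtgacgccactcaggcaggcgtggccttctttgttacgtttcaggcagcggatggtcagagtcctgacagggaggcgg

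Total counts ranged from 25.9 to 50.1 M reads per library, and the smallest count of any of the 5 genes in any library was 296 reads, of Rwdd2b. Libraries of the same group differed by more than sampling noise. The regions matched their labels, since the summed level of 7 hippocampal marker genes was 951 to 1164 CPM (counts scaled to the library size) in the HIP libraries and 348 to 427 CPM in the EC libraries. The sum of 7 cortical markers was 529 to 838 CPM in the EC libraries and 167 to 241 CPM in the HIP libraries. Single markers of these lists departed from the sums. The hippocampal marker Wfs1 had medians of 239 (wt) and 242 CPM (Ts66Yah) in the EC against 177 and 190 CPM in the HIP. The cortical marker Fezf2 had medians of 26.3 CPM in wt HIP and 20.3 CPM in wt EC libraries. The medians of the other markers went with the sums. Choroid plexus markers varied in the HIP libraries of both genotypes, from 114 to 3352 CPM in wt mice and from 777 to 2889 CPM in Ts66Yah mice, and their part in the values below was not tested. In whole tissue, fewer cells of a type and less RNA per cell cannot be told apart. All 5 genes passed the filter on low counts in every comparison.

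Ttc3 was by far the most abundant of the 5 genes. Levels between genes were compared as CPM per kilobase of merged exons. In wt HIP libraries, Ttc3 measured 56.5 ± 2.67 (SD, n = 5) CPM per kb and Ltn1 9.002 ± 0.517, followed by N6amt1 at 3.25 ± 0.490, Usp16 at 2.83 ± 0.247 and Rwdd2b at 2.83 ± 0.219. The last 3 overlapped in their ranges and were not separated by their spread. In wt EC libraries the order was Ttc3 (74.7 ± 3.92 CPM per kb), Ltn1 (9.63 ± 1.99), Rwdd2b (3.04 ± 0.211), N6amt1 (2.67 ± 0.348) and Usp16 (1.82 ± 0.114). There, Rwdd2b and N6amt1 overlapped, and Usp16 lay below both. The plot of the levels shows all libraries.

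**Figure D1:**
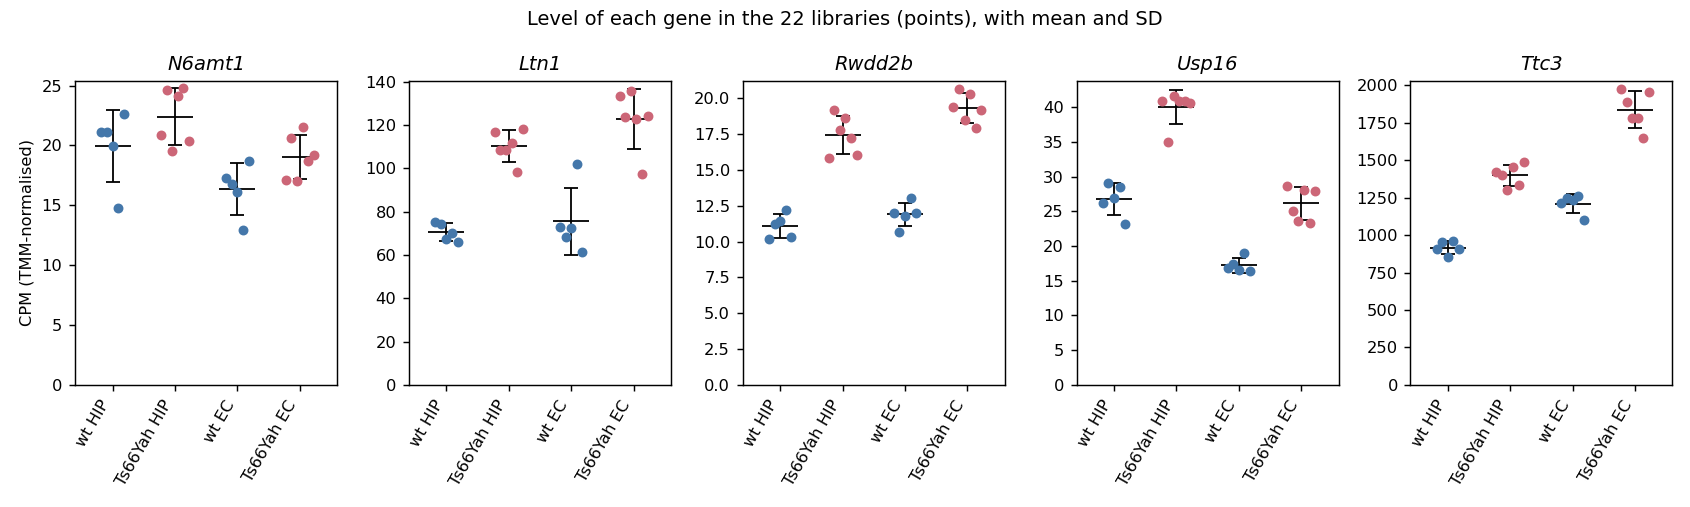
Level of the 5 genes in CPM (y axis, TMM-normalised, from 0) in the 22 libraries, with wt in blue and Ts66Yah in red. Points are libraries, bars are the group mean and whiskers the SD (5 wt and 6 Ts66Yah mice per region). The Ts66Yah points lie above all wt points of their region for Rwdd2b, Usp16 and Ttc3, and the groups of N6amt1 overlap in both regions.

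In the HIP, 4 of the 5 genes were higher in every Ts66Yah library than in any wt library, and N6amt1 was not. N6amt1 measured 21.1, 21.1, 19.98, 14.8 and 22.6 CPM in wt replicates 1 to 5. In Ts66Yah replicates 1 to 6 it measured 20.9, 24.6, 19.5, 24.1, 24.8 and 20.4 CPM. Hence 3 of the 6 Ts66Yah libraries were above the highest wt library, and wt replicate 4 was the lowest of all.

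Its neighbours were separated between the genotypes. Ltn1 lay between 66.2 and 75.0 CPM in wt HIP libraries (median 70.1) and between 98.2 and 118 CPM in Ts66Yah HIP libraries (median 110.1). Rwdd2b lay between 10.2 and 12.2 CPM (median 11.3) against 15.8 to 19.2 CPM (median 17.5), and Usp16 between 23.2 and 29.1 CPM (median 27.0) against 35.0 to 41.6 CPM (median 40.9). For these 3 genes and for Ttc3, which lay between 851 and 959 CPM (median 909) in wt mice and between 1303 and 1485 CPM (median 1411) in Ts66Yah mice, the groups did not overlap. Such a separation was seen in 185 of the 18452 genes tested in the HIP and in 63.4% of the 101 tested segment genes.

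The fold of N6amt1 in this comparison was what placed the gene in the group, so the HIP folds are a description and no test of them was made. N6amt1 was at 1.13-fold (log2 fold change 0.17, SE 0.10), and without wt HIP replicate 4 its log2 fold change was 0.09. The 4 other genes were at 1.4997-fold for Usp16 (log2 0.58, SE 0.07), 1.53-fold for Ttc3 (0.62, SE 0.05), 1.57-fold for Ltn1 (0.65, SE 0.05) and 1.58-fold for Rwdd2b (0.66, SE 0.07). N6amt1 thus lay below the limit of 1.5-fold used in the selection, and Usp16 was the gene nearest to that limit. The median over the 101 tested segment genes was 1.501-fold, and N6amt1 had the 11th lowest fold of them, and the third lowest of the 59 with a mean of at least 10 CPM.

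The EC libraries were not used to select the genes, and tests were made on them. They come from the same 11 mice as the HIP libraries, however, and the levels of N6amt1 in both regions of a mouse deviated together (r = 0.889 over the 11 mice), so that the EC tests of N6amt1, against 1.5-fold and as ratios included, are not independent of its selection. In them, 4 of the 5 genes rose in Ts66Yah mice, that is Ltn1, Rwdd2b, Usp16 and Ttc3, while N6amt1 did not pass the threshold (edgeR quasi-likelihood test, Benjamini-Hochberg adjusted p under 0.05 over 17658 tested genes). Among all tested genes 0.272% were called higher, and 0.283% in either direction. The share called higher was 48.4% among the 93 tested segment genes and 72.7% among the 55 with a mean of at least 10 CPM, a level that all 5 genes reach. The count of 4 of 5 is therefore near that of segment genes of like level.

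N6amt1 measured 17.3, 16.7, 16.1, 12.96 and 18.7 CPM in wt EC replicates 1 to 5. In Ts66Yah EC replicates 1 to 6 it measured 17.1, 20.7, 17.1, 21.6, 18.7 and 19.2 CPM. All 6 Ts66Yah libraries lay above the wt mean of 16.4 CPM, 3 of them lay above the highest wt library, and wt replicate 4 was again the lowest. The fold was 1.16 (95% confidence interval 0.998 to 1.34; log2 fold change 0.21, SE 0.10; adjusted p = 0.809).

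Rwdd2b rose from 10.7, 11.8, 12.0, 12.0 and 13.02 CPM in the wt EC libraries to between 17.9 and 20.7 CPM (median 19.3) in Ts66Yah mice. The genotypes did not overlap, at 1.62-fold (95% interval 1.45 to 1.81; adjusted p = 0.000412). Ttc3 rose from 1102, 1212, 1235, 1247 and 1260 CPM to between 1650 and 1973 CPM (median 1835), without overlap, at 1.51-fold (1.37 to 1.66; adjusted p = 0.000412). Usp16 rose from 16.5, 16.5, 16.8, 17.3 and 19.1 CPM to between 23.3 and 28.7 CPM (median 26.5), likewise without overlap, at 1.51-fold (1.34 to 1.69; adjusted p = 0.00243). These are 3 of the 5 genes; a separation of this kind was seen in 0.595% of all genes tested in the EC and in 58.1% of the segment genes.

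Ltn1 rose as far as Rwdd2b but with more spread between mice. It measured 73.1, 68.4, 72.2, 102.2 and 61.6 CPM in wt EC replicates 1 to 5, and in Ts66Yah EC replicates 1 to 6 133, 124, 136, 123, 97.2 and 124 CPM. Only wt replicate 4 and Ts66Yah replicate 5 overlapped. The fold was 1.62 (95% interval 1.35 to 1.94; log2 fold change 0.69, SE 0.12; adjusted p = 0.0277). Without wt replicate 4 the log2 fold change was 0.84 (adjusted p = 0.000627), and without Ts66Yah replicate 5 it was 0.75 (adjusted p = 0.010). The call was lost without any one of wt replicates 1, 2, 3 and 5 and Ts66Yah replicates 1, 2, 3, 4 and 6, with adjusted p between 0.0584 and 0.103 and log2 fold changes between 0.62 and 0.69.

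To compare the dosage directly, each gene was tested against a rise of 1.5-fold, the ratio of 3 copies to 2, with p-values adjusted over the 93 segment genes of the EC. None of the 5 genes departed from it, as for all but 1.08% of the segment genes. For N6amt1 the unadjusted p was 0.00227 and the adjusted p = 0.0704, and its interval ended below 1.5. Without wt EC replicate 4, the library with the lowest N6amt1 level, the adjusted p was 0.0234 and N6amt1 passed. The adjusted p of Ltn1, Rwdd2b, Usp16 and Ttc3 lay between 0.660 and 0.960. N6amt1 had the eighth lowest fold of the 93 tested segment genes in the EC and the second lowest of those with a mean of at least 10 CPM, where the segment median was 1.49-fold.

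The genotype effect of each of the 5 genes differed between the regions by less than the error of that difference. The log2 fold change in the EC minus that in the HIP was 0.04 (SE 0.08) for N6amt1, 0.06 (SE 0.11) for Ltn1, 0.04 (SE 0.09) for Rwdd2b, 0.01 (SE 0.08) for Usp16 and -0.02 (SE 0.07) for Ttc3. As the HIP values entered the selection, these differences are given without a test.

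The neighbours of the 5 genes rose with the segment where they were expressed well. Of 25 other segment genes within 250 kb of one of them, 9 were tested in the EC, and 6 of these rose, with a median of 1.45-fold over the 9 (10 tested, 6 higher and 1.44-fold in the HIP, where the share of segment genes called higher was 57.4%). Next to Usp16, the chaperonin subunit gene Cct8 was at 1.56-fold in the EC (adjusted p = 0.000433) and 1.52-fold in the HIP, and Bach1, a transcriptional repressor regulated by haem, was at 1.501-fold in the EC (adjusted p = 0.00273) and 1.35-fold in the HIP. Around Ttc3, Hlcs, which attaches biotin to carboxylases, was at 1.42-fold in both regions, Pigp, a subunit in the synthesis of membrane anchors, at 1.45-fold in the EC and 1.41-fold in the HIP, Vps26c, an endosomal sorting subunit, at 1.49-fold in the EC and 1.63-fold in the HIP, and the kinase gene Dyrk1a at 1.53-fold in the EC and 1.46-fold in the HIP. All 6 passed the threshold in both regions.

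The other tested neighbours were expressed at 1.39 CPM or less in wt mice and did not pass. Beyond Usp16, the non-coding B130034C11Rik was at 1.23-fold in the EC (SE 0.30 on the log2 scale) and 0.940-fold in the HIP (SE 0.17), and Map3k7cl at 1.42-fold (SE 0.30) and 0.961-fold (SE 0.19). Near Ttc3, Ripply3 was at 1.37-fold in the EC (SE 0.28) and 2.05-fold in the HIP (SE 0.24), and Sim2, tested only in the HIP, at 1.67-fold (SE 0.31). Their errors are several times those of the expressed genes. In the edgeR test against 1.5-fold, adjusted over the segment genes of the region, B130034C11Rik departed in the HIP (adjusted p = 0.0286) but not in the EC (0.861). Map3k7cl did not depart in the HIP (0.0767) or the EC (0.940), nor did Ripply3 and Sim2 where they were tested. N6amt1, with 392 to 1005 reads per library in the HIP and 429 to 824 in the EC, was not among these low genes. Its fold was below that of each of the 6 neighbours that passed, in both regions, as the plot along the chromosome shows. Among those that did not pass, B130034C11Rik and Map3k7cl lay below N6amt1 in the HIP, and the others lay above it, as did all in the EC. N6amt1 was selected on its HIP fold and the 6 neighbours are those called higher, so that this order is a description and no test.

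**Figure D2:**
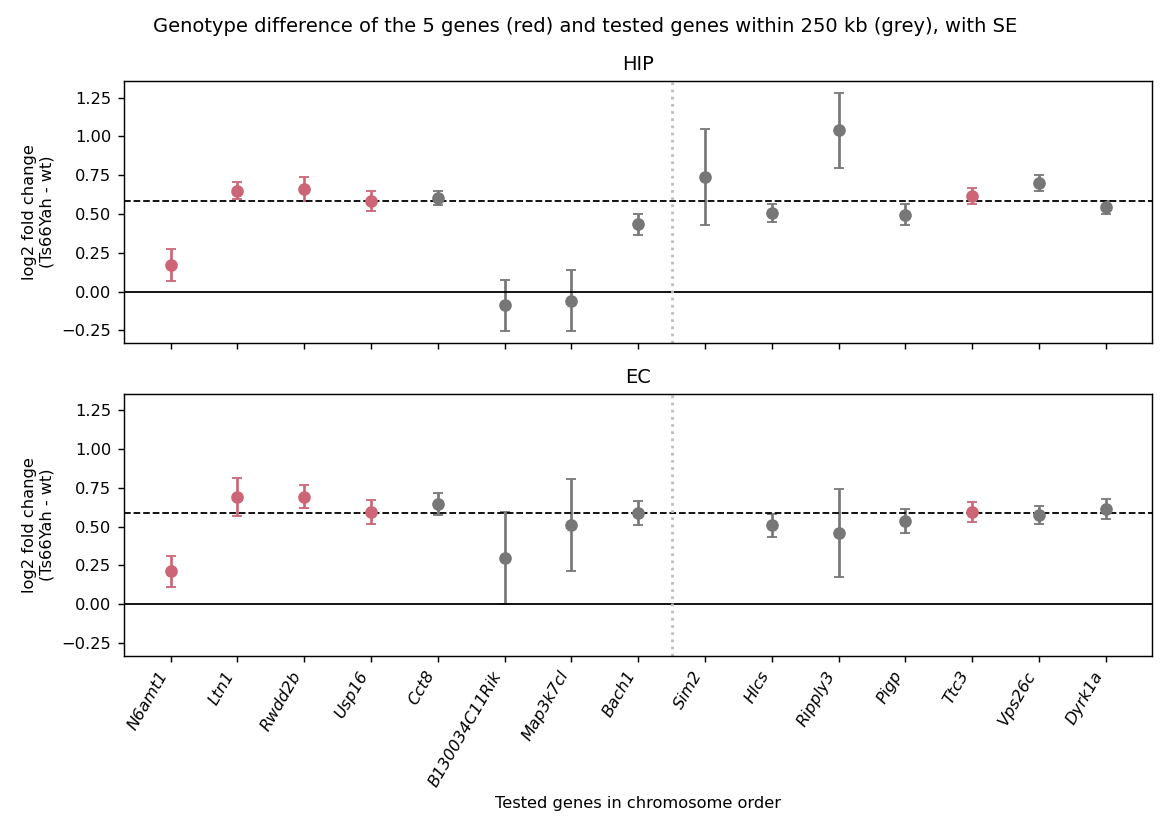
Log2 fold change of Ts66Yah against wt (y axis) in the HIP (top) and the EC (bottom) for the 5 genes (red) and the tested genes within 250 kb of them (grey), in chromosome order, with SE as whiskers. The solid line marks no change, the dashed line marks 1.5-fold, and the dotted line parts the neighbourhood of N6amt1 from that of Ttc3; N6amt1 lies at 0.17 and 0.21, and the 4 other red points lie between 0.58 and 0.69.

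The ratio of one gene to another within a library does not depend on library size, and it was used to compare the neighbours with each other in the EC. The mean ratio of N6amt1 to each of the 4 other genes was lower in Ts66Yah than in wt mice, without passing the threshold, and the mean ratios among those 4 differed less. In wt EC libraries the log2 ratio of N6amt1 to Rwdd2b averaged 0.45 ± 0.27 (SD, n = 5), and Ts66Yah mice averaged -0.03 ± 0.10 (SD, n = 6), a ratio of 0.719 between the genotypes (exact permutation test, two-sided, p = 0.0108, 0.0974 adjusted over 10 pairs). The corresponding ratio was 0.769 for N6amt1 to Ttc3 (exact p = 0.0195, adjusted 0.0974), 0.772 for N6amt1 to Usp16 (exact p = 0.0303, adjusted 0.101) and 0.711 for N6amt1 to Ltn1 (exact p = 0.0563, adjusted 0.141). Among the 6 other pairs the ratio between genotypes lay between 0.996 and 1.09, with exact p between 0.123 and 0.916.

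None of the 10 pairs passed the threshold after adjustment. In the pairs with N6amt1, wt replicate 4 was the library that lay among the Ts66Yah values, and the 4 other wt libraries lay above all of them. Without wt EC replicate 4, 5 pairs passed, whereas 0 passed when any other single EC library was left out. The 4 pairs with N6amt1 then separated fully (exact p = 0.00476, the smallest that 210 splits allow, adjusted p = 0.0119). Such a separation follows from the positions just given, and the 4 pairs share N6amt1, so these p-values add no separate evidence. The ratios were 0.620 to Ltn1, 0.664 to Rwdd2b, 0.711 to Usp16 and 0.720 to Ttc3. The other pair that passed was Ltn1 to Ttc3, at 1.16 (exact p = 0.0190, adjusted 0.0381). In the HIP, where the same ratios are a description, those of N6amt1 fell to between 0.719 and 0.756 of their wt value and those among the other genes lay between 0.978 and 1.05.

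**Figure D3:**
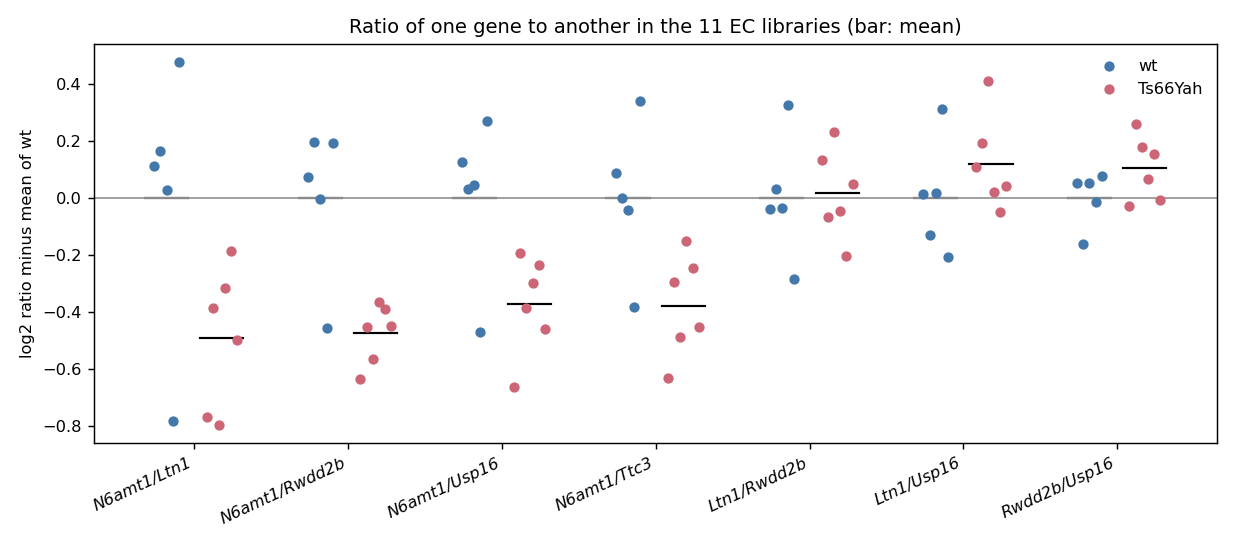
Log2 ratio of one gene to another in each of the 11 EC libraries (y axis, minus the mean of the wt libraries) for the 4 pairs with N6amt1 and 3 pairs of its neighbours, with wt in blue, Ts66Yah in red and bars at the group means. In the pairs with N6amt1 the Ts66Yah means lie at -0.37 to -0.49 and 1 wt point, replicate 4, lies far below the other wt points; in the pairs among the neighbours the means lie at 0.02 to 0.12.

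The spread of N6amt1 between wt mice rested on replicate 4. Its coefficient of variation was 15.1% in wt HIP and 13.1% in wt EC libraries, against medians of 9.29% and 11.8% over 14964 genes, and 10.6% and 9.66% in Ts66Yah libraries, against 8.56% and 11.0%. Without wt replicate 4, an alternative chosen after seeing the data, it was 5.07% in wt HIP and 6.49% in wt EC libraries, against medians of 9.17% and 10.4%, so that N6amt1 varied more than the median gene in 3 of the 4 groups with that mouse and in 1 without it. In 8 of the 11 mice the gene lay on the same side of the genotype mean in both regions. Over the 11 mice, the deviation from the genotype mean on the log2 scale in the EC followed that in the HIP with Pearson's r = 0.889 and Spearman's rho = 0.755. Without the 2 mice farthest from the median in the HIP r was 0.689, and without wt replicate 4 alone 0.753.

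The count of mice on the same side of the genotype mean in both regions was also 8 for Usp16 and for Ttc3, and it was 6 for Ltn1 and 5 for Rwdd2b. For these other 4 genes r lay between 0.322 and 0.477 and rho between 0.409 and 0.555. Without the 2 farthest mice their r lay between 0.155 and 0.702. Without wt replicate 4, r was 0.689 for Ltn1 (0.414 with it), 0.134 for Rwdd2b (0.367 with it), 0.204 for Usp16 (0.322 with it) and 0.431 for Ttc3 (0.477 with it), so that Ltn1 then lay near N6amt1. The comparison of mice was chosen after the values had been seen, and its HIP values are those that placed N6amt1 in the group, so these coefficients are a description with no test. The median r over the 17232 genes tested in both regions was 0.302, and 2.02% of them, N6amt1 included, had an r at or above that of N6amt1. Wt replicate 4 was the lowest wt library in both regions for 7.09% of these genes and the highest in the EC, as for Ltn1, for 24.1%.

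**Figure D4:**
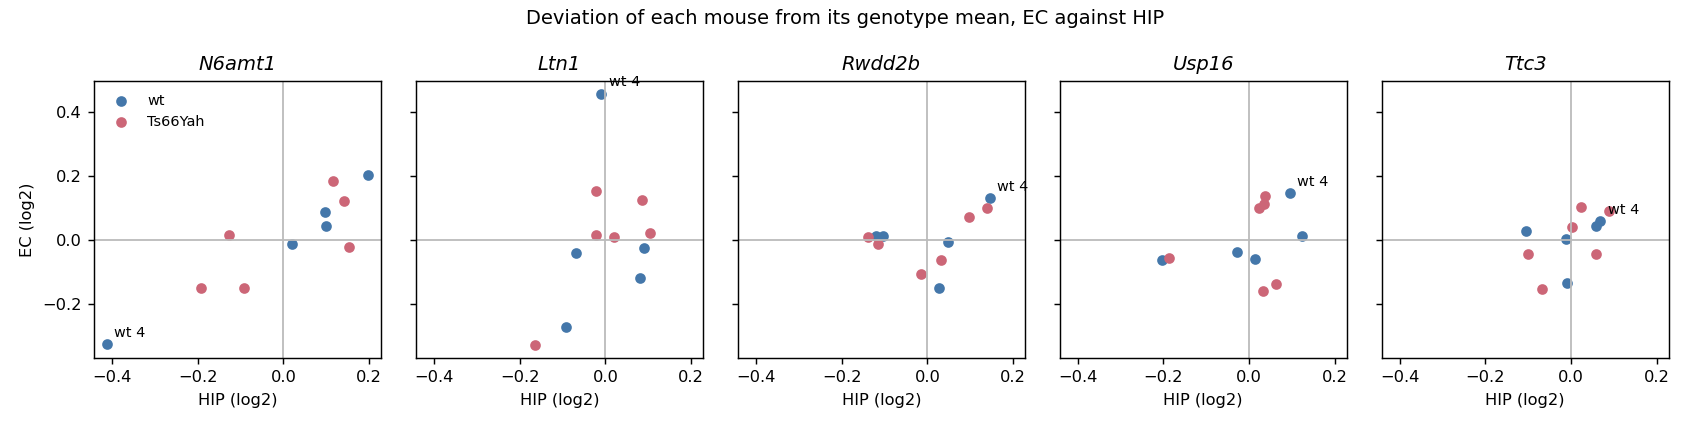
Deviation of each mouse from the mean of its genotype on the log2 CPM scale, in the EC (y axis) against the HIP (x axis), for the 5 genes, with 5 wt mice in blue and 6 Ts66Yah mice in red. Wt replicate 4 is named; it is the lowest mouse in both regions for N6amt1 and the highest in the EC for Ltn1.

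Between the regions, Usp16 was lower and Ttc3 was higher in the EC than in the HIP, in mice of both genotypes. In wt mice, the EC level of Usp16 was 0.653 of the HIP level (95% interval 0.591 to 0.721; adjusted p = 1.98e-05, edgeR with the mouse as a block, lower in all 5 mice). Ttc3 was at 1.34 (1.23 to 1.46; adjusted p = 0.000111, higher in all 5). These are 2 of the 4 genes besides N6amt1, where 53.3% of the 17935 tested genes differed between the regions, so that the count is near that of all genes. Ltn1 (1.07, 0.927 to 1.23; adjusted p = 0.413) and Rwdd2b (1.09, 0.962 to 1.23; adjusted p = 0.228) did not pass. N6amt1 was at 0.834 of its HIP level and lower in the EC of all 5 wt mice; because its HIP values took part in the selection, its region values are given as a description with no test.

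In Ts66Yah mice, the folds were 0.652 for Usp16 (0.594 to 0.716; adjusted p = 9.36e-06) and 1.31 for Ttc3 (1.23 to 1.401; adjusted p = 1.90e-05), each in the same direction in all 6 mice. N6amt1 was at 0.851, likewise lower in all 6. Ltn1 (1.11; adjusted p = 0.0167, higher in 5 of 6 mice) and Rwdd2b (1.11; adjusted p = 0.0345, higher in 6 of 6) passed as well, so that all 4 genes besides N6amt1 did, against 59.0% of the 18043 tested genes. These last calls were sensitive to single mice. Ltn1 lost its call without replicate 3 (adjusted p = 0.0614), and Rwdd2b lost its call without replicate 1, 2, 4 or 6 (adjusted p between 0.0505 and 0.108). Usp16 and its neighbour Rwdd2b, which are transcribed away from each other, thus differed in opposite directions between the regions of Ts66Yah mice while both rose with genotype.

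**Figure D5:**
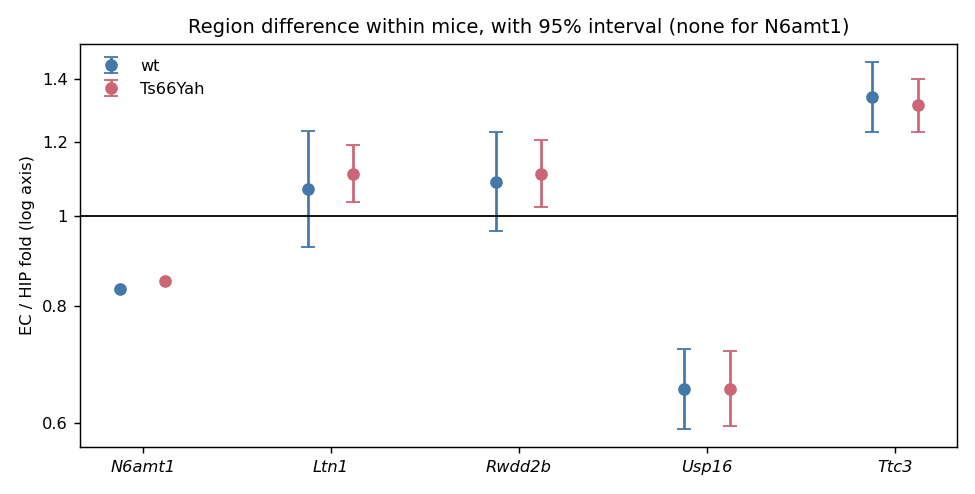
Fold of the EC level over the HIP level within mice (y axis, log scale) for the 5 genes in 5 wt mice (blue) and 6 Ts66Yah mice (red), with 95% confidence intervals as whiskers for the 4 genes that were tested. Usp16 lies at 0.653 and 0.652, N6amt1 at 0.834 and 0.851 and Ttc3 at 1.34 and 1.31.

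Across all 22 libraries, the protein-coding genes whose log2 CPM was most like that of 4 of the 5 genes were other genes of the segment. Of 13423 genes compared, Ltn1 was closest to Dyrk1a (r = 0.966), Synj1 (0.961) and Tmem50b (0.937), Rwdd2b to Ifnar1 (0.963), Mrpl39 (0.954) and Wrb (0.944), Usp16 to Son (0.957), Kcnj6 (0.952) and Gabpa (0.948), and Ttc3 to Cct8 (0.961), Hlcs (0.960) and App (0.953). For N6amt1, the closest were Acss3 (0.811), Tsen54 (0.788) and Dpp7 (0.778), which lie on Mmu10, Mmu11 and Mmu2 and not in the segment. The libraries share the differences of genotype and region, which these coefficients include, and they are given as a description. The 22 libraries include the HIP libraries in which N6amt1 was selected for a fold below 1.5. The absence of segment genes among its closest genes is therefore not independent of that selection. Among the 5 genes, r was 0.908 for Ltn1 and Rwdd2b, 0.880 for Rwdd2b and Ttc3, and 0.868 for Ltn1 and Ttc3. For N6amt1, r was 0.608 with Usp16, 0.284 with Rwdd2b, 0.155 with Ltn1 and 0.0156 with Ttc3. Usp16 likewise had a low r with Ttc3, at 0.184, and its r was 0.534 with Ltn1 and 0.521 with Rwdd2b.

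Lists of genes known to work with these 5, none of which lies in the segment, held 73 genes, and all were tested. Of them, 0 passed the threshold between genotypes in either region by edgeR, DESeq2 or limma voom. Among all tested genes, segment genes included, edgeR called 0.591% (HIP) and 0.283% (EC). Of the 109 genes called in HIP libraries, 58 were segment genes called higher, as were 45 of the 50 called in EC libraries. Calls outside the segment were thus rare, and 0 of 73 does not set the lists apart from other genes. At an unadjusted p under 0.05, edgeR gave 9 of the 73 in the HIP, 4 of them higher in Ts66Yah mice, and 3 in the EC, 1 of them higher, against 11.9% and 6.25% of all tested genes. The median log2 fold change of the 73 genes was -0.02 for the HIP and 0.01 for the EC, beside 0.00 for all tested genes in both.

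In ribosome-associated quality control, the pathway of Ltn1, 9 of 22 genes had a positive log2 fold change in the EC, which ranged from -0.15 to 0.10. Its smallest unadjusted p in the EC was that of Ufd1, a cofactor of the p97 segregase, at 0.935-fold (log2 SE 0.05; adjusted p = 0.850). Nemf, which marks the stalled large subunit for Listerin, was at 0.972-fold in the EC (log2 SE 0.06). Of the 11 genes of translation termination and of Trmt112 partners, which go with N6amt1, 7 had a positive log2 fold change in the EC, and the smallest p was that of Gspt1, the termination factor eRF3, at 1.10-fold (log2 SE 0.07; adjusted p = 0.853).

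In the list of 25 genes that place, read or remove ubiquitin on histone H2A, the mark that Usp16 removes, 15 had a positive log2 fold change in the EC. The smallest p was that of Cbx7, a Polycomb subunit, which averaged 43.7 ± 6.75 CPM (SD, n = 5) over wt EC libraries against 33.8 ± 6.22 CPM (SD, n = 6) over those of Ts66Yah mice, at 0.770-fold (log2 SE 0.13; adjusted p = 0.646), and it was at 0.787-fold in the HIP (log2 SE 0.13; adjusted p = 0.316). Of the 6 genes of Akt and reported Ttc3 partners, 4 had a positive value in the EC, and Akt1 was at 0.910-fold (log2 SE 0.06; adjusted p = 0.7996). Of the 9 genes listed with Rwdd2b around the RWD domain, Gcn1 included, 5 had a positive value, and Rwdd3 was at 1.27-fold (log2 SE 0.14; adjusted p = 0.717). None of these differences passed the test.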

How the data were processed

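RNA-Seq was performed on the HIP and EC of 11 male mice. Per the labels, libraries were prepared with a stranded poly(A) kit, whereas the study's methods also name a kit with ribosomal RNA depletion; Hisat2 served for mapping to GRCm38 and HTSeq for counting on Ensembl release 99. The authors deposited raw counts per gene, the unit used here. Their DESeq2 and FCROS tables hold their own comparisons and were not used. All value columns were mapped to samples by their labels (0 unmapped).

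Genotypes were compared within a region with edgeR 4.0.16 (R 4.3.3; TMM, filterByExpr, quasi-likelihood test, Benjamini-Hochberg, threshold 0.05), and regions with the mouse as a block; HIP and EC libraries of 1 mouse deviated together (r 0.215 to 0.538 in 11 mice). Departure from 1.5-fold was tested with an offset. The script was checked on simulated counts. CPM values are TMM-scaled over 22 libraries; log2 CPM used a prior count of 2. Gene annotation was GENCODE M21 (55144 of 55385 identifiers matched); sequences are from RefSeq. Near-identical meant at least 90% identity over at least 80% of a transcript. Total counts of 25.9 to 50.1 M limit precision; intervals from edgeR cover the spread between mice. Members and lists were chosen with earlier results of these data known. Named genes are the 5 genes, tested segment genes within 250 kb, overlapping genes, in each list the gene with the smallest p in the EC, and the 3 genes with the highest r per member; Nemf and Adamts5 were added after their values were seen. Alternatives were DESeq2 1.42.0, limma 3.58.1 voom, RLE factors, other filters, all libraries in 1 fit, blocks and leaving out libraries.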

Additional observations from a re-analysis of the deposited data

Results flagged for a closer look

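In groups of 5 or 6 libraries, 3 values lay apart from the others of their group by the gap to the nearest library over the range of the group; 20 groups were examined, and chance gives about 1 in 20. Ltn1 measured 102.2 CPM in wt EC replicate 4, where the nearest library measured 73.1 CPM, and the gap was 0.715 of the range. Ltn1 measured 97.2 CPM in Ts66Yah EC replicate 5, with the nearest library at 123 CPM and a gap of 0.668 of the range. Usp16 measured 35.0 CPM in Ts66Yah HIP replicate 2, with the nearest library at 40.5 CPM and a gap of 0.834 of the range. By the same rule, wt replicate 4 was not flagged for N6amt1 in either region. The Ltn1 values are the only libraries of the EC that overlapped between the genotypes for this gene.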

How the results depend on the processing

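Among the results with a test, the number of the 5 genes called higher in the EC was 4 in 9 of 19 alternatives and 3 in the 10 others, where Ltn1 lost its call. The number departing from 1.5-fold was between 0 and 1 over the fits that left out 1 EC library, and the number of pairs whose ratio differed by genotype was between 0 and 5. In both, only the fit without wt EC replicate 4 gave the higher value. The region values of N6amt1 are a description and are not counted here. With no replicate block for the mouse in edgeR, Ltn1 and Rwdd2b lost their region calls in Ts66Yah mice (adjusted p = 0.0709 and 0.0615). Usp16 and Ttc3 kept theirs in both genotypes. In Ts66Yah mice, Rwdd2b also lost its call with DESeq2 and with no filter on low counts (adjusted p = 0.0738 and 0.0721). The calls lost without single mice are given above. With the replicate number as a replicate block between genotypes, the log2 fold change of N6amt1 in the EC was 0.21 and its adjusted p against 1.5-fold 0.233. No call of the 5 genes in the EC changed. Same-numbered wt and Ts66Yah libraries had correlations of -0.01 to 0.06 in the HIP and 0.02 to 0.19 in the EC. These were low, and the numbers were not taken as pairs. However, 3 of 5 wt libraries in the EC and 1 of 5 in the HIP correlated best with their own number. The correlations therefore do not settle whether the EC libraries were paired. When mice were blocked by their range of animal numbers, the adjusted p of Ltn1 was 0.101. The log2 fold change of N6amt1 lay between 0.15 and 0.26 in the EC and between 0.09 and 0.22 in the HIP over 19 alternatives each. No list gene passed in either region under any of 19 alternatives. The causes were not tested.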
